A study of Drosophila melanogaster with 8 samples.

Results

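Nicotinic acetylcholine receptors are ligand-gated cation channels built as pentamers of related subunits. The *Drosophila melanogaster* genes that encode these subunits are described here. The members are all genes so named, taken without regard to their values, although the family was chosen with earlier results of these data known. They are *nAChRalpha1* to *nAChRalpha7* and *nAChRbeta1* to *nAChRbeta3*, 10 of the 23932 features that were counted. RNA from dissected adult brains was sequenced to ask how neuronal overexpression of Extramacrochaetae (Emc), an inhibitor of the basic helix-loop-helix factor Daughterless (Da), changes brain transcription. In 4 EmcOE samples (genotype elavC155-Gal4>UAS-emc) the driver *elavC155-Gal4* expressed a *UAS-emc* transgene, and the 4 Control samples came from the cross of the same driver to *white**. All flies were 0 to 1 day old, and every sample pooled brains of many males and females. The driver was thus present in both groups, is active in neurons from embryonic stages on, and left developmental and adult effects of Emc together in 1 measurement. The groups also differed in the line crossed to the driver, so the transgene and the rest of that line's genetic background cannot be told apart.

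Acetylcholine is the main fast excitatory transmitter of the insect central nervous system, and nicotinic receptors carry most of this transmission. The ligand binds at the interface between subunits. Alpha subunits are recognised by a pair of neighbouring cysteines in the binding loop, which beta subunits lack, and functional receptors may contain alpha subunits alone or alpha with beta subunits. The family is also known as the target of the neonicotinoid and spinosyn insecticides.

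*emc* itself had 6038, 6289, 5874 and 6020 normalized counts in EmcOE brains, against 4951, 4786, 5165 and 4961 in Control brains (log2 fold change 0.29, SE 0.043, edgeR adjusted p = 0.00246), and the groups did not overlap. A normalized count is a count scaled to the mean effective library size. *da* did not pass the test (1895 ± 88.3 in EmcOE and 1890 ± 42.9 in Control brains, SD, n = 4 each, edgeR adjusted p = 0.977). Libraries held 20751513 to 41619980 counts, with EmcOE replicate 1 the deepest. None of the 5 neuronal, 5 glial, 5 photoreceptor and 5 muscle markers was called, and no marker gene was at 0. With 3.57% of all features called upregulated and 5.12% downregulated, a count of 0 among so few is near the background. Summed neuronal markers spanned 113202 to 127458 normalized counts in EmcOE brains and 108340 to 119695 in Control brains, and their median log2 fold change was 0.19. Median log2 fold changes were -0.06 for glial, -0.09 for photoreceptor, -0.36 for muscle and 1.56 for fat body markers. Summed muscle markers spanned 16691 to 26692 in EmcOE and 20992 to 34075 in Control brains. All 5 muscle markers had log2 fold changes below 0, from -1.37 to -0.17. Of 6 fat body markers 4 were upregulated, against 3.57% of all features. These 4 had log2 fold changes of 2.06 for *Fbp1*, 1.96 for *Fbp2*, 1.64 for *Obp99b* and 1.49 for *Lsp1beta*. The fat body sums overlapped (16191 to 27051 in EmcOE and 9398 to 31813 in Control brains) and were mostly *Yp1*, which had a log2 fold change of 0.02. Of 4 hemocyte and basement membrane markers 2 were downregulated, against 5.12% of all features. These were *Hml* (log2 fold change -0.69) and *NimC1* (-0.48), and the median of the 4 was -0.25. Their sums overlapped (18294 to 21391 in EmcOE and 18233 to 21845 in Control brains). The sums were mostly *Col4a1* and *vkg*, which had log2 fold changes of -0.02 and 0.03. The part of cell composition in the values below was not tested. In such bulk tissue, more cells that express a gene and more RNA of it per cell cannot be told apart.

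The 10 genes lay on 3 autosomal arms and the X (coordinates in build BDGP6.32). *nAChRalpha1* (FBgn0000036, 3R:24393896-24457157), *nAChRalpha2* (FBgn0000039, 3R:24485428-24491147) and *nAChRbeta2* (FBgn0004118, 3R:24509228-24515106) sat within 121 kb of each other on 3R. The gaps were 28.3 kb between *nAChRalpha1* and *nAChRalpha2* and 18.1 kb between *nAChRalpha2* and *nAChRbeta2*. *nAChRalpha3* (FBgn0015519, X:8276200-8367169) and *nAChRalpha7* (FBgn0086778, X:19327075-19348447) were on the X chromosome. *nAChRalpha5* (FBgn0028875, 2L:14040170-14094401), *nAChRalpha6* (FBgn0032151, 2L:9793317-9886250) and *nAChRbeta3* (FBgn0031261, 2L:545129-547096) were on 2L. The last ones, *nAChRalpha4* (FBgn0266347, 3L:23206669-23287448) and *nAChRbeta1* (FBgn0000038, 3L:4429349-4435993), were on 3L. Gene size separated most alpha from beta subunit genes. *nAChRalpha2* and the 3 beta subunit genes spanned 1.97 to 6.64 kb, with 1.53 to 4.02 kb of exon, whereas the other 6 alpha subunit genes spanned 21.4 to 92.9 kb, with 5.78 to 11.0 kb of exon. Coding length differed far less, from 1323 bases in *nAChRbeta3* to 2511 bases in *nAChRalpha5*, so most exonic sequence of the 6 large genes was not coding.

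*nAChRbeta3* had 0 counts in all 8 libraries, where a floor of 3 counts corresponds to a CPM of 0.0721 to 0.145. It encodes a divergent subunit. Every base of its exons lay inside exons of *Ets21C*, an ETS-domain transcription factor gene, and the counting left out read pairs that overlapped several features. Of 1829 features with every exon base inside other features, 1827 (99.9%) had 0 counts, against 17.2% of the other features. The 0 therefore gives no limit on *nAChRbeta3* RNA. *Ets21C* had 23.7 ± 5.30 normalized counts in EmcOE and 25.6 ± 8.80 in Control brains (SD, n = 4 each, edgeR adjusted p = 0.853). For *nAChRalpha4*, 15.3% of the exon bases lay in other features, and for *nAChRalpha3* 2.39%. The remaining 7 genes shared no exon base.

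Levels of different genes were compared as normalized counts per kb of exon. *nAChRbeta1*, a beta subunit found with several alpha subunits, was the most abundant, at 4536 ± 280 per kb in EmcOE and 4311 ± 18.1 per kb in Control brains (SD, n = 4 each, here and for the levels that follow). *nAChRalpha7*, whose product is needed for the giant fibre escape response, followed at 1389 ± 62.9 per kb in EmcOE and 1203 ± 56.9 per kb in Control brains. *nAChRalpha2* came next, at 1088 ± 13.7 per kb in EmcOE and 1049 ± 25.6 per kb in Control brains. After these came *nAChRbeta2*, *nAChRalpha4*, *nAChRalpha6*, *nAChRalpha5* and *nAChRalpha1*, in descending order. *nAChRalpha3* was the lowest of the 9 detected genes, at 167 ± 5.37 per kb in EmcOE and 131 ± 9.03 per kb in Control brains. With full exon lengths as divisor, the order was the same in both groups. The order depends on this divisor. By counts not divided by length, *nAChRalpha6* ranked 3 and *nAChRalpha2* ranked 8 in Control brains, where per kb they ranked 6 and 3. How much of each exon length was transcribed in these brains was not measured. Pairs in the 15.3% of *nAChRalpha4* exon bases that lay in other features were not counted, so its level may be too low. Its place beside *nAChRbeta2* is therefore uncertain in both groups. The ratio of the highest to the lowest level was 27.1 in EmcOE and 32.9 in Control brains, and the only neighbours whose sample ranges overlapped were *nAChRalpha6* and *nAChRalpha5*, in Control brains only.

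**Figure D1:**
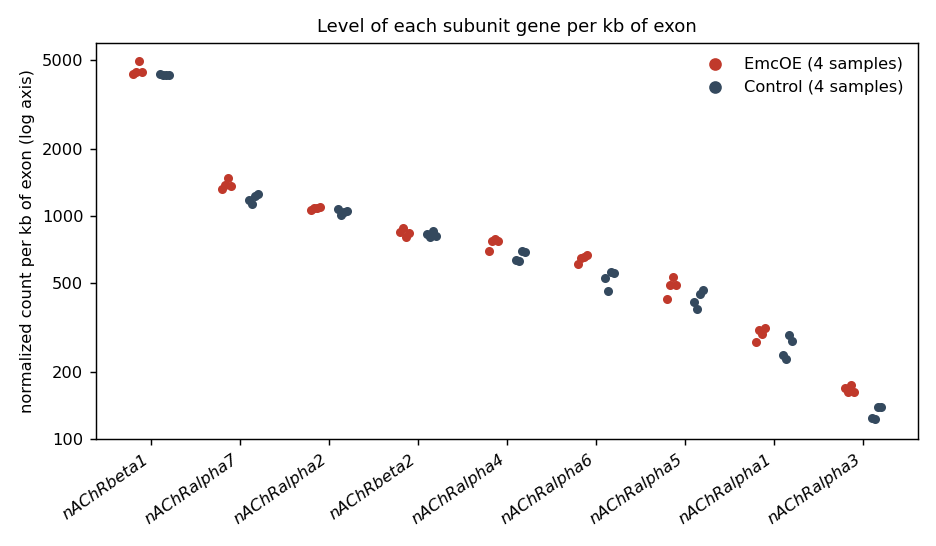
Level of each detected nicotinic subunit gene, as normalized counts per kb of exon on a log axis, in 4 EmcOE and 4 Control brain samples. Each point is a sample, and genes run from the highest to the lowest level. *nAChRbeta1* lies at 4292 or more in every sample and *nAChRalpha3* at 174 or less.

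A gene was called where edgeR's quasi-likelihood test gave an adjusted p up to 0.05 (Benjamini-Hochberg, over 9788 features) and its log2 fold change was 0.2 or larger in size. Of the 9 tested subunit genes 3 were called upregulated, against 3.57% of all features, and DESeq2 called the same 3 genes, against 4.09%. None was called downregulated by edgeR, against 5.12% of all features, or by DESeq2, against 6.75%, and 6 of the 9 had an unadjusted p under 0.05 with a fold change above 0, against 12.8% of all features. The called genes were *nAChRalpha3*, *nAChRalpha6* and *nAChRalpha7*. All 9 log2 fold changes were above 0, as were 53.0% of all features, with a median of 0.19 and a range of 0.03 to 0.35, where the median of all features was 0.013. Every EmcOE sample was above every Control sample for 4 of the 9 genes, against 8.51% of all features. The 9 fold changes stayed above 0 under all 19 alternative settings, among them 3 other scalings of the libraries. For *nAChRbeta2* this was by very little, at 0.0008 without EmcOE replicate 2 (edgeR adjusted p = 0.996). Of the 7 alpha subunit genes 3 were called, with a median of 0.20 on the log2 scale, whereas the 2 tested beta subunit genes had a median of 0.05 and were not called by either tool. Whether alpha and beta genes differed in response was not tested. The number of called members depended on single libraries, since *nAChRalpha3* was the only one left without EmcOE replicate 2, 3 or 4 or without Control replicate 1, where 2.38%, 2.41%, 2.73% and 2.33% of all features were called upregulated. Summed over the family, the normalized counts were 44342, 46685, 49076 and 46822 in EmcOE brains, against 41385, 39793, 43433 and 43321 in Control brains, so no sums overlapped.

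**Figure D2:**
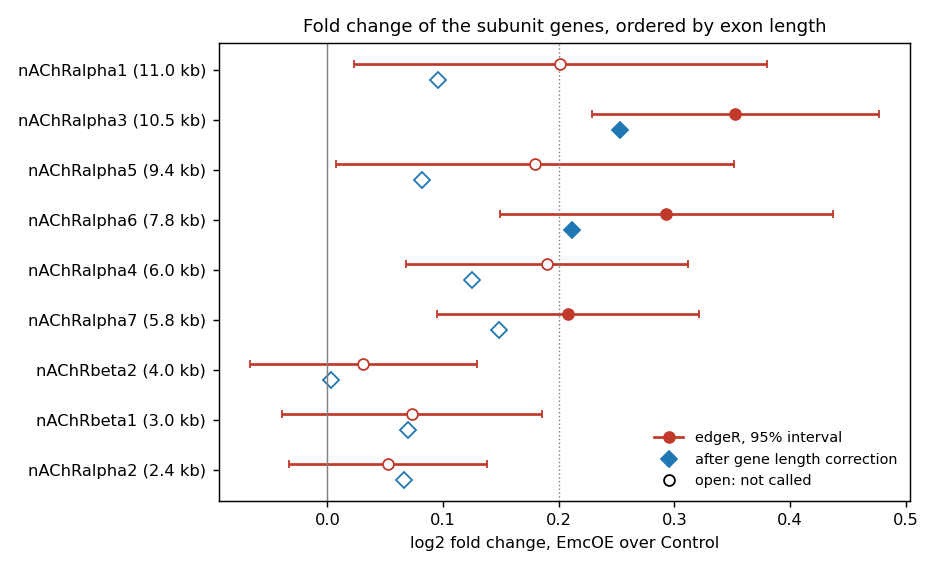
Log2 fold change of EmcOE over Control for the 9 tested subunit genes, ordered by exon length, with 95% confidence intervals from the edgeR fit (circles) and after the gene length correction (diamonds). Symbols are filled where the gene was called, the dotted line marks the threshold of 0.2, and all 9 estimates lie to the right of 0, from 0.03 for *nAChRbeta2* to 0.35 for *nAChRalpha3*.

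*nAChRalpha3*, the alpha subunit gene with the lowest level per kb, changed most. It had 1778, 1718, 1830 and 1709 normalized counts in EmcOE brains, against 1303, 1289, 1460 and 1459 in Control brains. The lowest EmcOE sample was well above the highest Control sample. By the fitted fold change, the level was 27.7% higher in EmcOE brains (log2 fold change 0.35, SE 0.056, edgeR adjusted p = 0.00362), with a 95% confidence interval of 0.23 to 0.48. It was called under each of the 19 alternative settings, at 0.25 to 0.42.

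*nAChRalpha6*, which encodes the main target of the insecticide spinosad, had 4766, 5042, 5086 and 5219 normalized counts in EmcOE brains, against 4093, 3583, 4393 and 4345 in Control brains. The groups did not overlap, and Control replicate 2 was lower than the other Control samples. The fitted level was 22.5% higher in EmcOE brains (log2 fold change 0.29, SE 0.065, 95% confidence interval 0.15 to 0.44, edgeR adjusted p = 0.0194). The call held under 14 of the 19 alternatives. It was lost by a narrow margin when EmcOE replicate 2, 3 or 4 or Control replicate 1 was left out, with edgeR adjusted p-values of 0.0599, 0.0505, 0.0503 and 0.0533.

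*nAChRalpha7*, closely related in sequence to *nAChRalpha5* and *nAChRalpha6*, had 7679, 7958, 8538 and 7934 normalized counts in EmcOE brains, against 6809, 6557, 7137 and 7289 in Control brains. Again no EmcOE sample reached down into the Control range. The fitted level was 15.5% higher in EmcOE brains (log2 fold change 0.21, SE 0.051, 95% confidence interval 0.09 to 0.32, edgeR adjusted p = 0.0303). This fold change was close to the threshold of 0.2, and the call held under 11 of the 19 alternatives. It was lost without EmcOE replicate 2, 3 or 4 or Control replicate 1 or 2, where the edgeR adjusted p was 0.0763, 0.0701, 0.0593, 0.0837 and 0.0943.

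**Figure D3:**
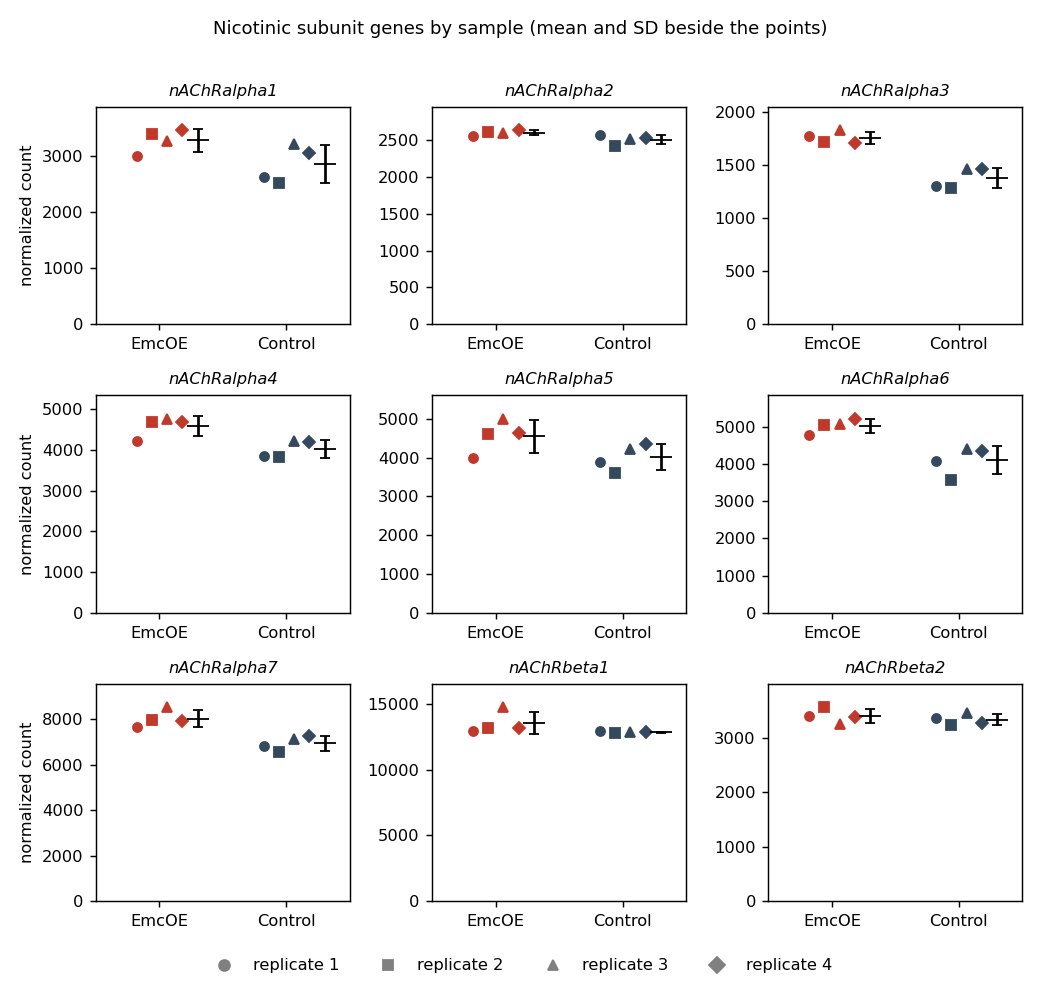
Normalized counts of each tested subunit gene in the 4 EmcOE and 4 Control samples, one panel per gene with its own axis, each starting at 0, with symbols for samples and the mean with its SD beside them. In *nAChRalpha3*, *nAChRalpha6* and *nAChRalpha7* all 4 EmcOE samples lie above all 4 Control samples, and in *nAChRbeta2* the samples intermingle.

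The other three large alpha subunit genes had fold changes near the threshold but were not called. *nAChRalpha4*, a subunit gene linked to sleep regulation in the fly, had 4226, 4682, 4772 and 4690 normalized counts in EmcOE brains, against 3855, 3824, 4231 and 4196 in Control brains. EmcOE replicate 1 fell just inside the Control range, and the other EmcOE samples lay above it. The log2 fold change was 0.19 (SE 0.055, 95% confidence interval 0.07 to 0.31, edgeR adjusted p = 0.0575). Without EmcOE replicate 1 it was called upregulated (0.23, edgeR adjusted p = 0.0207), as were 4.81% of all features. With scaling by total counts alone it was also called upregulated (0.26, edgeR adjusted p = 0.0356), as were 4.23% of all features.

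*nAChRalpha1*, one of the subunits through which neonicotinoids act, had 3000, 3396, 3274 and 3464 normalized counts in EmcOE brains, against 2625, 2522, 3221 and 3051 in Control brains. The groups overlapped through EmcOE replicate 1 and the 2 higher Control samples. Its log2 fold change of 0.20 had an edgeR adjusted p of 0.146 (SE 0.081, 95% confidence interval 0.02 to 0.38). *nAChRalpha5*, whose product can form receptors of alpha subunits alone, had 3985, 4599, 5007 and 4624 normalized counts in EmcOE brains, against 3886, 3610, 4220 and 4361 in Control brains. Here too EmcOE replicate 1 lay among the Control samples. The log2 fold change was 0.18 (SE 0.078, 95% confidence interval 0.01 to 0.35, edgeR adjusted p = 0.178). Neither gene was called under any of the 19 alternatives.

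The 3 short subunit genes had the fold changes nearest to 0. *nAChRbeta1* had 12948, 13118, 14731 and 13166 normalized counts in EmcOE brains, against 12893, 12763, 12807 and 12827 in Control brains. The groups did not overlap, but the lowest EmcOE sample was only just above the highest Control sample, and EmcOE replicate 3 stood apart from the rest. The log2 fold change was 0.07 (SE 0.051, 95% confidence interval -0.04 to 0.19, edgeR adjusted p = 0.403). *nAChRalpha2*, an alpha subunit gene that neighbours *nAChRbeta2*, had 2556, 2610, 2586 and 2632 normalized counts in EmcOE brains, against 2563, 2419, 2505 and 2527 in Control brains. EmcOE replicate 1 lay below the highest Control sample. The log2 fold change was 0.05 (SE 0.039, 95% confidence interval -0.03 to 0.14, edgeR adjusted p = 0.436). *nAChRbeta2* had 3405, 3561, 3252 and 3385 normalized counts in EmcOE brains, against 3360, 3227, 3459 and 3266 in Control brains. The samples of both groups were mixed (log2 fold change 0.03, SE 0.044, 95% confidence interval -0.07 to 0.13, edgeR adjusted p = 0.706). For these 3 genes the interval lay below the threshold of 0.2, so changes of that size were outside it.

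Within the 3R group of 3 neighbouring genes, *nAChRalpha1* thus had a log2 fold change of 0.20, and *nAChRalpha2* and *nAChRbeta2* had 0.05 and 0.03. None of the 3 was called, and their difference was not tested. The 2 genes on the X chromosome, *nAChRalpha3* and *nAChRalpha7*, were both called, against 3.50% of the 1599 tested X-linked features called upregulated. The non-coding RNA *roX1*, which is transcribed in males, had 12140 ± 905 normalized counts in EmcOE and 12241 ± 1297 in Control brains (SD, n = 4 each), and its samples overlapped.

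Fold changes of all features moved with exon length, and were highest in the longest features. The median log2 fold change was -0.01, -0.03, -0.01, 0.02 and 0.08 over quintiles of features from short to long exon length. The 6 subunit genes with at least 4265 bases of exon, in the longest quintile, had a median of 0.20 and a range of 0.18 to 0.35. Of these 6 genes 3 were called upregulated, against 7.00% of the 1958 features in that quintile, and the groups did not overlap for 3, against 16.3%. The 3 shorter subunit genes had a median of 0.05 and a range of 0.03 to 0.07. After each sample's trend on length was removed, *nAChRalpha3* (0.25, edgeR adjusted p = 0.0163) and *nAChRalpha6* (0.21, edgeR adjusted p = 0.0261) were called upregulated, against 3.28% of all features. *nAChRalpha7* then had a log2 fold change of 0.15 (edgeR adjusted p = 0.0345), under the threshold of 0.2, and the median of the 9 genes was 0.096.

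Samples also differed in this trend. The median deviation of the longest quintile minus that of the shortest was -0.18, 0.053, 0.21 and 0.12 on the log2 scale in EmcOE brains, against -0.024, -0.093, -0.073 and -0.048 in Control brains. EmcOE replicate 1 was thus the lowest of all 8 samples and EmcOE replicate 3 the highest. The 6 long subunit genes had median deviations of 0.0089, 0.13, 0.18 and 0.13 in EmcOE brains, against -0.15, -0.26, -0.034 and -0.034 in Control brains. In EmcOE replicate 1, *nAChRalpha3*, *nAChRalpha6* and *nAChRalpha7* were above every Control sample, whereas *nAChRalpha1*, *nAChRalpha4* and *nAChRalpha5* were within the Control range. Control replicate 2 was the lowest sample for all 9 genes, and EmcOE replicate 3 was the highest for 5. With EmcOE replicates 1 and 3 both left out, *nAChRalpha3* alone was called upregulated, against 2.01% of all features, and the median of the 9 genes was 0.20.

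**Figure D4:**
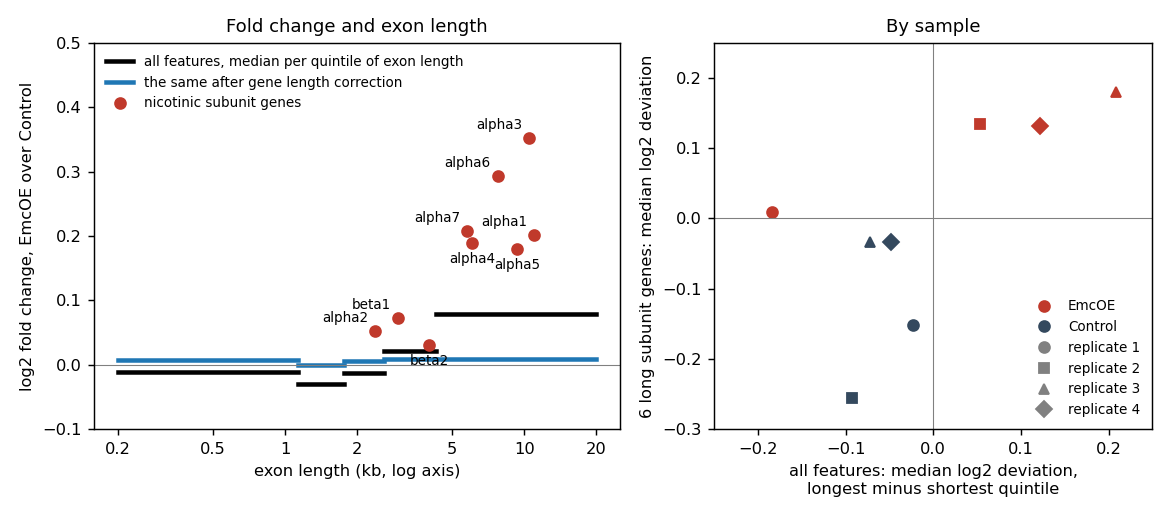
Left, log2 fold change against exon length (log axis) for the 9 tested subunit genes, with the median of all features per quintile of exon length before and after the length correction, drawn from 0.2 to 20 kb. The 6 long genes lie at 0.18 to 0.35, where the median of the longest quintile is 0.08. Right, for each sample, the median log2 deviation of the 6 long genes against the difference between the longest and shortest quintile of all features, from -0.18 in EmcOE replicate 1 to 0.21 in EmcOE replicate 3.

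The makeup of the family was described by each gene's percent of the summed level per kb, again with full exon lengths as divisor. *nAChRbeta1* made up 44.4 ± 1.17% in EmcOE and 45.9 ± 1.15% in Control brains (SD, n = 4 each, here and below), and the samples overlapped. *nAChRalpha7* made up 13.6 ± 0.087% in EmcOE and 12.8 ± 0.30% in Control brains. *nAChRalpha6* made up 6.33 ± 0.22% in EmcOE and 5.60 ± 0.37% in Control brains. For both of these genes, and for *nAChRalpha3* at 1.64 ± 0.061% in EmcOE and 1.39 ± 0.065% in Control brains, the shares of the groups did not overlap. The other 6 shares overlapped between groups. All alpha subunit genes together made up 46.8%, 47.8%, 46.50% and 48.1% in EmcOE brains, against 44.8%, 43.8%, 46.2% and 46.49% in Control brains. The groups thus only just failed to overlap.

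Acetylcholine signalling also needs enzymes, transporters and muscarinic receptors, and 7 of 8 such genes could be tested. All 7 log2 fold changes were above 0, as were 53.0% of all features, with a median of 0.14. Of the 7 genes 2 were called upregulated, against 3.57% of all features. *SLC22A*, an organic cation transporter gene that can limit acetylcholine signalling, had 1355, 1414, 1496 and 1330 normalized counts in EmcOE brains, against 1191, 1072, 1135 and 1111 in Control brains. The groups did not overlap (log2 fold change 0.31, SE 0.055, edgeR adjusted p = 0.00634), and the call held under all 19 alternatives. *mAChR-A*, a G protein-coupled muscarinic receptor, had 3277, 3247, 4027 and 3369 normalized counts in EmcOE brains, against 2980, 2677, 3014 and 2952 in Control brains. Its groups did not overlap either, but EmcOE replicate 3 was far above the others (log2 fold change 0.26, SE 0.073, edgeR adjusted p = 0.0496). The call held under 9 of the 19 alternatives. It was lost when any single library other than EmcOE replicate 1 was left out, with edgeR adjusted p-values from 0.0599 without EmcOE replicate 2 to 0.131 without Control replicate 2. With all libraries kept, the call was also lost under RLE, another normalization (edgeR adjusted p = 0.0502), and under scaling by total counts (edgeR adjusted p = 0.0538). *Ace*, which encodes acetylcholinesterase, had a log2 fold change of 0.14 (edgeR adjusted p = 0.238). *VAChT*, the vesicular acetylcholine transporter gene, had 0.16 (edgeR adjusted p = 0.0940), and *ChAT*, the gene of the enzyme that makes acetylcholine, had 0.14 (edgeR adjusted p = 0.0754). *VAChT* and *ChAT* are nested and share exon sequence, so their read pairs are partly not separable.

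Genes listed for a possible role in assembly, trafficking, anchoring or editing of nicotinic receptors had a median log2 fold change closer to 0. The list is broad, and a role at nicotinic receptors was not checked for each gene. All 12 genes found were tested and 0 were called by edgeR, although 4 had an unadjusted p under 0.05, against 25.5% of all features in either direction, and DESeq2 called 0 as well. With 3.57% of all features called up and 5.12% down by edgeR, a count of 0 among 12 is near the background. Their log2 fold changes ran from -0.17 to 0.15 with a median of 0.024, 8 above and 4 below 0. *Hasp*, which encodes a secreted synaptic cleft protein, had 45404 ± 1446 normalized counts in EmcOE and 41941 ± 1161 in Control brains (SD, n = 4 each, log2 fold change 0.11, edgeR adjusted p = 0.162). *hig*, whose secreted product acts in the cleft of cholinergic synapses, had a log2 fold change of -0.02 (edgeR adjusted p = 0.870). *qvr*, the gene of a membrane-anchored protein that acts on nicotinic receptors and potassium channels, had 0.10 (edgeR adjusted p = 0.313).

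The other Cys-loop receptor genes encode mostly chloride channels, and 10 of the 12 found could be tested. Of these 0 were called by edgeR, although 5 had an unadjusted p under 0.05, against the same 25.5%, and DESeq2 called 1, *SecCl*, downregulated, against 6.75% of all features. The count of 0 is again near the 3.57% called up and 5.12% called down over all features. The median log2 fold change was 0.12, from -0.70 for *SecCl* (edgeR adjusted p = 0.0779) to 0.28 for *Grd* (edgeR adjusted p = 0.115), with 8 above and 2 below 0. *Rdl*, the main GABA receptor subunit gene, had 11847 ± 605 normalized counts in EmcOE and 10576 ± 1128 in Control brains (SD, n = 4 each, log2 fold change 0.16, edgeR adjusted p = 0.201). *GluClalpha*, a glutamate-gated chloride channel gene, had 0.14 (edgeR adjusted p = 0.146). Whether the nicotinic genes differed from these lists was not tested.

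**Figure D5:**
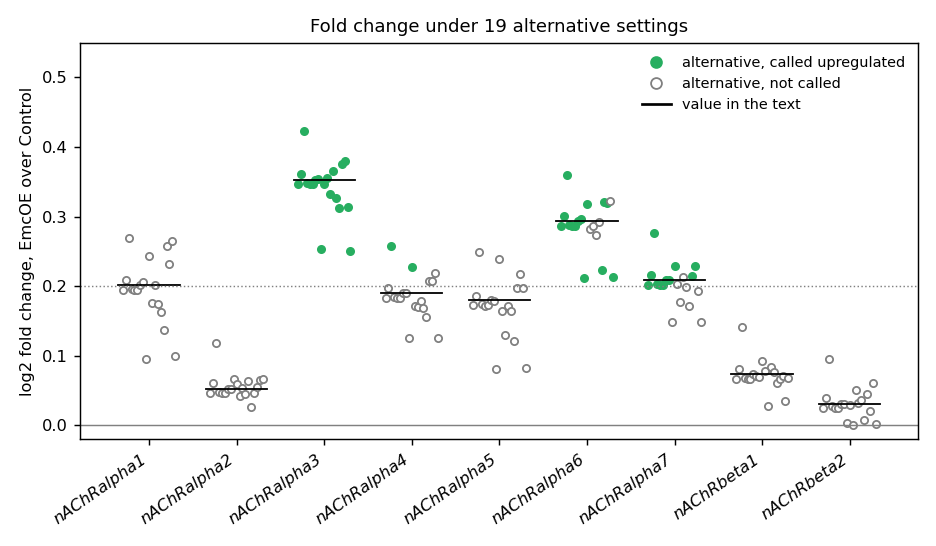
Log2 fold change of EmcOE over Control for each tested subunit gene under 19 alternative settings (points, filled where the gene was called upregulated) and as given in the text (black line). *nAChRalpha3* is called in all 19, *nAChRalpha6* in 14, *nAChRalpha7* in 11 and *nAChRalpha4* in 2.

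The genes whose profile over the 8 samples was nearest to the mean profile of the 9 subunit genes were *mmd*, *tutl* and *CG16779*. Nearness was the root mean square distance between standardised profiles, which was 0.14 for *mmd*, 0.17 for *tutl* and 0.18 for *CG16779*, where the median of all features was 1.40. *mmd* encodes a membrane metalloprotease and *tutl* an immunoglobulin superfamily protein of neurons. All 3 were long genes, with 7.79, 9.89 and 12.5 kb of exon. Their log2 fold changes were 0.17 for *mmd* (edgeR adjusted p = 0.0961), 0.23 for *tutl* (edgeR adjusted p = 0.0352) and 0.29 for *CG16779* (edgeR adjusted p = 0.0416). The mean profile held the difference between the groups in the same 8 samples. Fold changes above 0 with low p-values therefore follow from this choice of genes and are no separate result. Among the subunit genes, each of which is part of that mean, *nAChRalpha4*, at a distance of 0.20, was nearest to the mean profile and *nAChRbeta2*, at 1.11, farthest.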

How the data were processed

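The 10 genes and the lists beside them were chosen with earlier results of these data known. Per the labels and the study's methods, the authors used BBDuk to trim unstranded poly(A) read pairs, STAR 2.7.4a for mapping in 2 passes to BDGP6.32, and assigned pairs to genes with featureCounts 2.0.1. The deposited values were raw counts per feature, used as deposited, beside the exon length of each feature. Pairs overlapping several features went to none, and without strand, overlapping genes on opposite strands cannot be told apart. Groups and replicate numbers came from the labels. Total counts were 20751513 to 41619980 per sample, and floors of 3 counts cover counting error only. No replicates differed by less than sampling noise.

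The test was edgeR 4.0.16 in R 4.3.3 (TMM, quasi-likelihood, Benjamini-Hochberg adjustment), run on 9788 features whose mean normalized count reached 20 in EmcOE or Control brains. Calls needed an adjusted p up to 0.05 and a log2 fold change of 0.2 or more in size, after the study's methods. These name no replicate block, so none was used. Standard errors were derived from F statistics. Lists were described by counts and medians only. All family members are named, and of each list those that passed plus up to 3 of the highest count, with *SecCl*, *Grd*, *VAChT* and *ChAT* named beside these where they set a range, neighbour another gene or were picked with their values known. Alternatives were other normalizations, filters, thresholds and dispersion, DESeq2 1.42.0, the replicate block, a gene length correction (lowess span 0.3) and leaving out each sample. Leaving out EmcOE replicates 1 and 3 together, and the length correction with the block, were added after seeing the data.

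The fits were also run on simulated counts with known changes, drawn from the means and spread of the fit to these data. The main fit called 16 of 98 changes of 0.3 on the log2 scale and 29 of 48 of 0.5. It called 6 of 9473 unchanged features. DESeq2 called 33 of 100 changes of 0.3, so most changes of that size were missed in the simulation. These rates pool the changed features and were not split by level or standard error. The simulation changed 200 features, where edgeR called 349 up and 501 down in the data. The tested subunit genes had group means of 1378 or more normalized counts and SEs of 0.039 to 0.081. The rates therefore give no detection rate for these genes. Gene spans were those of the deposited table. A later Ensembl annotation (BDGP6.54), used for coding lengths, gave the same span for 99.9% of genes, all members included. No genome or transcript sequence was used here.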

Additional observations from a re-analysis of the deposited data

Results flagged for a closer look

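Of 38 groups of 4 values checked for a sample far from the rest, 3 stood out, where chance gives about 1 in 20. *nAChRalpha4* had 4226 normalized counts in EmcOE replicate 1, below the 4682 to 4772 of the other EmcOE samples. *nAChRbeta1* had 14731 normalized counts in EmcOE replicate 3, above the 12948 to 13166 of the other EmcOE samples. *nAChRalpha3* made up 1.73% of the summed level per kb in EmcOE replicate 1, against 1.60 to 1.62% in the other EmcOE samples. These 2 libraries were also the lowest and the highest in the length trend of all features. The part of that trend in these 3 values was not tested.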

How the results depend on the processing

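No subunit gene changed direction under any alternative, and none was called downregulated under any of them. The lowest log2 fold change was 0.0008, for *nAChRbeta2* without EmcOE replicate 2. *nAChRalpha3* was called under every alternative run. Leaving out each sample in turn gave 1 to 4 called members and a median log2 fold change of 0.14 to 0.23, and without EmcOE replicates 1 and 3 together 1 was called. With the gene length correction the median of the 9 genes was 0.096 (2 called upregulated, against 3.28% of all features). With the correction and the replicate block that median was 0.099 (2 called upregulated, against 279 of all 9788 features). The same-numbered samples did not deviate together (correlations -0.49, 0.15, 0.032 and -0.21), and 2 of 8 samples correlated best with their own number. With the replicate block 3 members were called upregulated, against 326 of all 9788 features, and the median of the 9 genes was 0.19. Over all features, 349 were called up and 501 down. With scaling by total counts these were 414 and 275, with the median of all features at 0.08, and 4 members were called. DESeq2 called 400 up and 661 down, and leaving out single samples gave 204 to 465 up and 323 to 513 down. Without EmcOE replicates 1 and 3, 194 were up and 207 down. With adjusted p alone, 388 were up and 525 down. Shares of the family that were not divided by exon length, as means over all 8 samples, were 6.91% for *nAChRalpha1*, 5.77% for *nAChRalpha2*, 3.52% for *nAChRalpha3*, 9.71% for *nAChRalpha4*, 9.64% for *nAChRalpha5*, 10.3% for *nAChRalpha6*, 16.9% for *nAChRalpha7*, 29.7% for *nAChRbeta1* and 7.61% for *nAChRbeta2*, which differ from those per kb by construction. With 4 samples a group the p-values weigh the difference between groups against the spread between these pools of brains. The fit estimates that spread partly from all tested features. A gene that missed the threshold is not shown to be unchanged.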
